A study of Rattus norvegicus with 8 samples.

Results

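Cadherins, protocadherins and the catenins that bind cadherins were examined in the hypothalamus of rats with diet-induced obesity and of control rats. Members were taken by name: every polyadenylation site of the deposited table with a protein-coding gene whose symbol starts with Cdh and a digit, or with Pcdh, Ctnna, Ctnnb or Ctnnd. This gave 846 of 73922 sites and 44 of 12255 genes. Libraries were made by whole transcriptome termini site sequencing (WTTS-seq), which counts reads at the 3′ ends of polyadenylated RNA, from 8 adult male Long-Evans rats. The 4 obesity rats had free access to a high fat diet and the 4 control rats to standard chow. Tissue was taken after 36 days on the diets. No genetic change or other treatment is named in the labels, and 8 libraries came from the 8 rats. The tissue was bulk hypothalamus, so fewer cells of a type and less RNA per cell cannot be told apart in any value below.

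Classical cadherins are membrane proteins that hold neighbouring cells together by binding the same cadherin on the other cell in the presence of calcium. Inside the cell, beta- and delta-catenins bind the cadherin tail, and alpha-catenins link the complex to actin. Protocadherins carry related outer domains. The non-clustered delta-1 and delta-2 protocadherins help sort axons and dendrites, and the clustered alpha, beta and gamma protocadherins give single neurons a surface identity that lets their branches avoid each other. In the hypothalamus, as in other brain regions, subtypes of these genes mark different nuclei and circuits.

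The members were 2 type I classical cadherins, 10 type II cadherins, 2 atypical cadherins, 4 delta-1 and 4 delta-2 protocadherins, 1 other non-clustered protocadherin, 12 clustered protocadherins and 6 catenins. The prefixes also took in 3 genes that are not catenins of the cadherin complex, namely Ctnnbl1, a splicing factor related to catenins, Ctnnbip1, an inhibitor of beta-catenin, and Ctnnal1, which resembles alpha-catenin.

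Each clustered protocadherin has its own promoter and first exon, while the alpha genes share one set of 3′ constant exons and the gamma genes another. A 3′ end read in the constant exons therefore cannot tell apart the members of a cluster, and the promoter is where they differ. Of the 44 members, 33 were matched by symbol to RefSeq promoters of the GRCr8 build (250 bases before to 50 after each start), and 8 of these were clustered. The 4 shown here are Pcdha4 (chr18:28876919-28877218) and Pcdhga7 (chr18:29794002-29794301), to which most clustered reads were assigned, and Pcdhb5 (chr18:29302216-29302515) and Pcdhb10 (chr18:29391610-29391909), all on the plus strand of GRCr8. Capitals mark matches to TGGCGCT or CGCTGTTCACC on either strand.
Pcdha4: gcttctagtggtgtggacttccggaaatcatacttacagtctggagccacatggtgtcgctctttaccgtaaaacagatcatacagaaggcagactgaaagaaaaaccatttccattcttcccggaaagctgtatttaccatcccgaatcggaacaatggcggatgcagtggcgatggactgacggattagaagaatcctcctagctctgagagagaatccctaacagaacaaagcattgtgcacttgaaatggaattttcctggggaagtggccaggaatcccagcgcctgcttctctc
Pcdhga7: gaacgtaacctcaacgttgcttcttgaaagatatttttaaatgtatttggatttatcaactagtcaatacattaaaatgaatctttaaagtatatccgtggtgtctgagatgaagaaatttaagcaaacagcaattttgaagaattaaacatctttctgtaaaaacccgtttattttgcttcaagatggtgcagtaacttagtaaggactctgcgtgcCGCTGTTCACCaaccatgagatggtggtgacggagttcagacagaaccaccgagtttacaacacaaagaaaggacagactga
Pcdhb5: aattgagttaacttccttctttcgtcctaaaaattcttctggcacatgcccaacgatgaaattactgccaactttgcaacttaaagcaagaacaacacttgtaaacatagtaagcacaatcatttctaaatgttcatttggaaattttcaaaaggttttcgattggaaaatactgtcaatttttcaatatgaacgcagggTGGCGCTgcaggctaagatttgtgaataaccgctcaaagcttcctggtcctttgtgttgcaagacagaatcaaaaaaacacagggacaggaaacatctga
Pcdhb10: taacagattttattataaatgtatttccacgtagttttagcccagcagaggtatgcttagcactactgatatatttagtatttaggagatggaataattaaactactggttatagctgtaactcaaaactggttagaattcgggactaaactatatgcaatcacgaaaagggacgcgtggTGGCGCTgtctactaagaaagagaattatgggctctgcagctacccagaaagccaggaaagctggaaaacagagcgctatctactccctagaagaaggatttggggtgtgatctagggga

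Both motifs were picked after the promoters had been looked at. They can overlap where a CGCT is shared. TGGCGCT was found in 15 of 35 clustered protocadherin promoters in the RefSeq table (42.9%) and in 1140 of all 33469 promoters (3.41%). Among the members it was in the promoters of Pcdhb5 and Pcdhb10, and in 1 of the 25 promoters outside the clusters. CGCTGTTCACC was found in 6 of the 35 (17.1%), against 21 of 33469 (0.0627%). All 4 member matches were gamma genes, Pcdhga5, Pcdhga7, Pcdhga8 and Pcdhga10, and none of the 25 promoters outside the clusters held it. The longer match began 32 bases before the start in Pcdhga7 and 22 bases before it in Pcdhga5. These are letter matches only.

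The 8 libraries held 13341135 reads, from 1417531 to 1957726 each. Of 14 hypothalamic neuron markers 13 were listed, 5 with a fold change above 0 and 8 below. At an unadjusted p under 0.05 in edgeR, Crh and Sim1 were higher and Avp, Oxt and Sst lower in obesity, each with an adjusted p of 0.904. In that fit 5.30% of all genes were under 0.05. Crh was sparse, with 5, 1, 4 and 5 reads in control and 12, 8, 26 and 10 in obesity. Summed over the 13, levels were 1248 to 1665 CPM in control and 1027 to 1274 in obesity. Avp, the vasopressin precursor, was at 952 ± 168 CPM (reads scaled to a common library size) in control and 702.1 ± 82.4 in the obesity rats (SD, n = 4). Some transcripts of adjoining tissue were high in single libraries. Obesity library 2 had 87 reads of Gh1, the pituitary growth hormone, against at most 1 in any other library, and obesity library 4 had 144 reads of Ttr, a choroid plexus transcript, against at most 2. Another pituitary transcript, Lhb, was also highest in obesity library 2, with 8, 0, 8 and 5 reads in control and 1, 58, 2 and 9 in obesity. The pituitary transcript Cga was spread over the libraries, with 71, 34, 13 and 19 reads in control and 35, 11, 71 and 0 in obesity. Each of the 8 oligodendrocyte markers had a fold change below 0, and their summed level was 17310 to 22200 CPM in control and 13380 to 20840 in obesity. Of the listed neuron markers 2 were above 0 and 3 below, of the astrocyte markers 3 and 4, and of the microglia markers 1 and 2. In these lists Stmn2 (neurons), Mal (oligodendrocytes), Aldoc (astrocytes) and Csf1r (microglia) were lower at an unadjusted p under 0.05 in edgeR. No gene of these lists was higher at that unadjusted p, and the adjusted p of each lower gene was 0.904. The part of these values in the results below was not tested. Counts of member genes, sites, site use and distal shares past a threshold were also taken without each library in turn. Libraries carry the numbers 1 to 4 in both groups, and same-numbered libraries deviated together, so a second fit took the number as a block, and its values are given beside those without it where they changed a count of members or of the genes of a pathway list.

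Member sites held 96130 reads, 0.721% of all, and 58.4% of the member sites had a read in all 8 libraries, against 55.2% of all sites. A level here is the number of 3′ ends of a gene in CPM, summed over its sites and scaled to the library by the TMM method, and is not divided by gene length. The members differed widely. Delta-1 protocadherins held 36.7% of member reads, catenins 25.6%, type II cadherins 15.3%, delta-2 protocadherins 10.3%, clustered protocadherins 5.73%, type I cadherins 3.50% and atypical cadherins 1.504%. The 4 leading genes, Pcdh9, Ctnna2, Ctnnd2 and Pcdh7, held 55.4%. At the other end, 13 members had under 100 reads in all, and 7 were at 0 reads in some library.

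**Figure D1:**
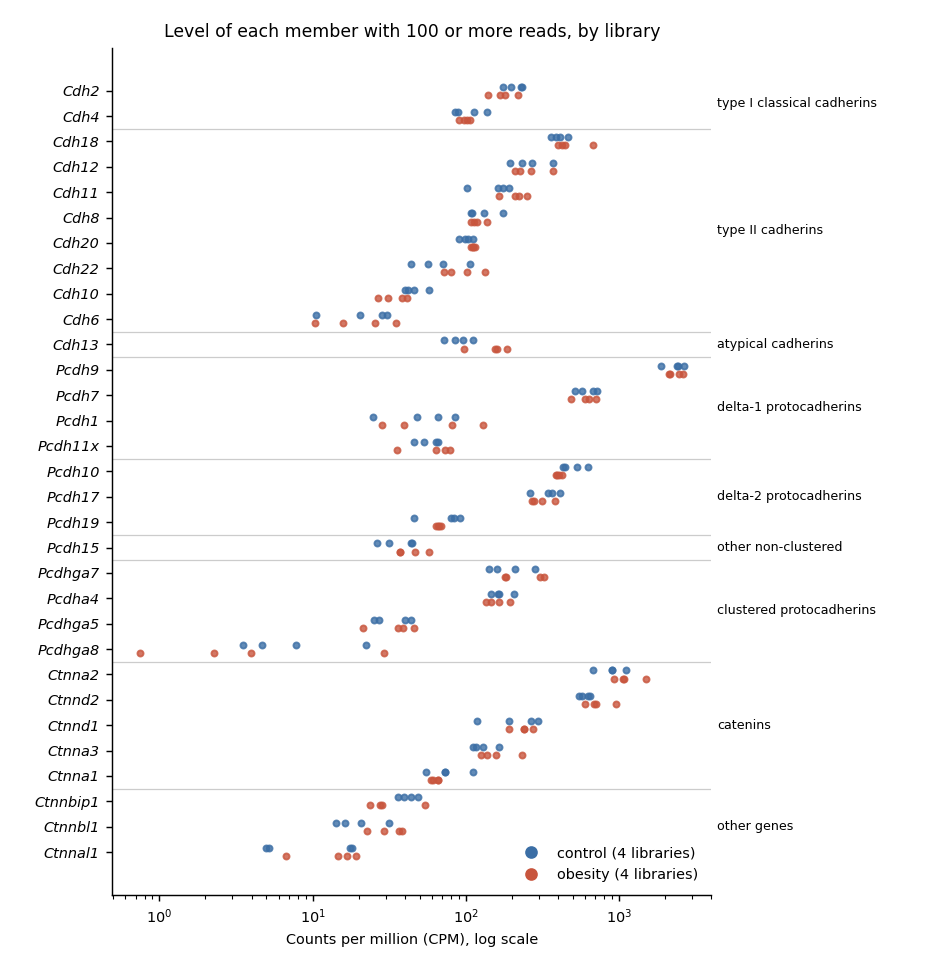
Level of the 31 members with 100 or more reads, on a log axis in CPM, with 1 point for each library, control in blue and obesity in red, ordered by role. Levels run from Pcdh9, at 1886 to 2658 CPM, down to Pcdhga8, at 0.742 to 29.1 CPM, and in all rows but that of Pcdh10 the colours overlap.

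Pcdh9, a delta-1 protocadherin, had 2658, 2416, 1886 and 2376 CPM in control rats 1 to 4 and 2628, 2145, 2116 and 2447 in obesity rats 1 to 4. The means were 2334 ± 324 and 2334 ± 247 CPM (SD, n = 4). The neuronal alpha-catenin Ctnna2 followed at 1116, 903.8, 675.5 and 902.3 CPM in control and 1504, 1070, 928.2 and 1061 in obesity. Its groups overlapped, although obesity was the higher library of each number. Next came the delta-catenin Ctnnd2, with 599.9 ± 46.3 CPM in control and 738.2 ± 154 in obesity, and then Pcdh7, with 621.0 ± 95.6 and 607.5 ± 90.3 CPM. The order of Ctnnd2 and Pcdh7 did not hold beyond their spread. Ctnnb1, which encodes beta-catenin, was among the lowest, with 2 listed sites and 95 reads in all, and was at 0 in control library 4.

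The first comparison was whether the summed reads of a member differed between diet-induced obesity and control. None of the 44 members passed an adjusted p of 0.1 in edgeR without the block (0.00% of all genes did), in edgeR with the block (0.122% of all genes) or in the DESeq2 Wald test (0.0245%). At an unadjusted p under 0.05 there was 1 member without the block, 2.27% of the members, against 5.30% of all 12255 genes, and the Wald test also gave 1, against 6.07%. The same member was under 0.01, against 0.832% of all genes. Fold changes were above 0 for 22 members and below 0 for 22. Their median was -0.00 on the log2 scale, and 0.01 over all genes.

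**Figure D2:**
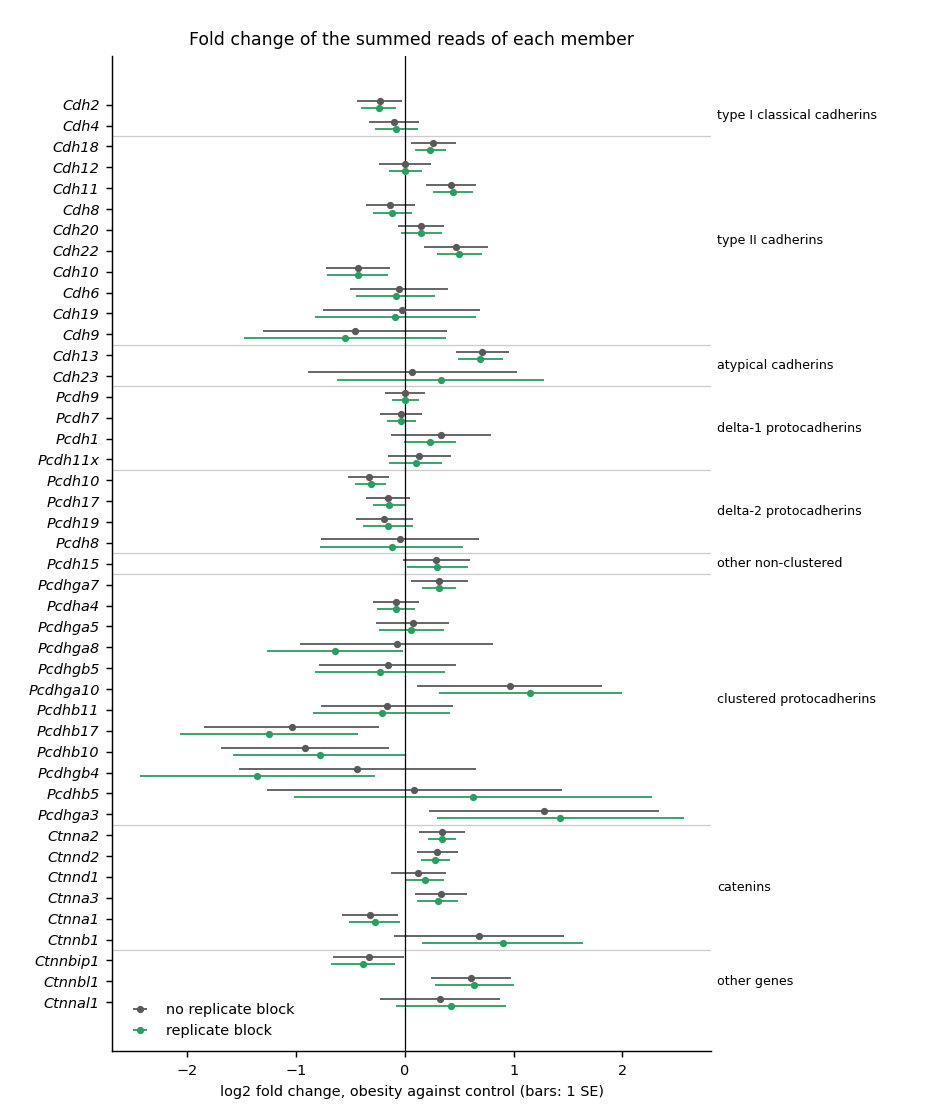
Log2 fold change, obesity against control, of the summed reads of all 44 members, ordered by role, without (grey) and with (green) the replicate number as a block; bars are 1 SE. Most bars of the abundant members reach or lie near 0, Cdh13 lies farthest to the right among members with narrow bars at 0.71, and the widest bars belong to clustered protocadherins with few reads.

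The single member was Cdh13, the T-cadherin, which is tethered to the membrane by a lipid anchor instead of a transmembrane segment and binds adiponectin. It had 84.8, 95.6, 72.0 and 110.8 CPM in control and 185.6, 96.9, 159.1 and 154.0 in obesity. Obesity library 2 lay within the control range, and the other 3 lay above it. Group means were 90.8 ± 16.5 and 148.9 ± 37.3 CPM (SD, n = 4). The log2 fold change was 0.71 (SE 0.24, edgeR unadjusted p 0.00906, adjusted p 0.904). With the block the fold change was 0.69 (unadjusted p 0.00234, adjusted p 0.191). Across the 12 alternative fits without the block the adjusted p was 0.293 to 1.00, and the fold change stayed between 0.59 and 0.86 when single libraries were left out. Of its 26 sites, 24 had a fold change above 0, spread over 1112 kb of chromosome 19, and 52.4% of all sites were above 0. Cdh13 was singled out by the sum of these same sites, so their like signs follow in part from that choice. Most of these sites are sparse, and the one with most reads held 9.89% of the reads of the gene.

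With the replicate number as a block, 6 members had an unadjusted p under 0.05 (13.6%), against 10.9% of all genes. Of these 5 were higher in obesity and 1 lower, against 5.03% and 5.83% of all genes, and 1 was under 0.01, against 3.54%. The adjusted p of these 6 ran from 0.191 to 0.459. Besides Cdh13, the higher ones were Ctnna2, Cdh22, Cdh11 and Ctnnd2, and Pcdh10 was lower. Ctnna2 had a log2 fold change of 0.34 (SE 0.13, unadjusted p 0.0125) in that fit and was higher in obesity in 4 of 4 same-numbered pairs. Cdh22, a type II cadherin, had 106.7, 56.8, 71.2 and 43.9 CPM in control and 132.9, 72.3, 101.4 and 80.0 in obesity, with a fold change of 0.50 (SE 0.21, unadjusted p 0.0245). All 4 of its pairs were higher in obesity while the groups overlapped. Like directions within pairs follow in part from choosing members by this fit. Outside the 6, Cdh18, Cdh20, Pcdhga3 and Pcdhga7 were also higher in all 4 pairs, and Cdh2 and Pcdhb17 in none. Pairs were not counted over all genes, so no share of the whole table can be set beside these. Cdh11, a type II cadherin first known from bone-forming cells, had 157.6 ± 38.6 CPM in control and 211.9 ± 36.0 in obesity (fold change 0.44, SE 0.19, unadjusted p 0.0250). When both libraries numbered 2 were left out of the block fit, Cdh13 (fold change 0.90, adjusted p 0.0134) and Cdh11 (0.61, adjusted p 0.0714) passed 0.1 in edgeR, 2 of 44 members (4.55%), against 4.63% of all genes in that fit. The share of the members was near that of all genes. Leaving out number 1, 3 or 4 gave 0 members. At an unadjusted p under 0.05 with the block, Cdh13 was left whichever number was omitted. Ctnna2 was lost without number 1 (p 0.0777), Cdh11 without 1 or 3, Cdh22 without 3 or 4, Ctnnd2 without 1, 3 or 4, and Pcdh10 without 1, 2 or 4. Other members came in at that threshold in edgeR. These were Pcdhga7 without number 2 (p 0.0416) or 3 (p 0.0466), Ctnnbl1 without 3 (p 0.0185) and Pcdhga10 without 4 (p 0.0284). Without the block, the fold change of Ctnna2 was 0.34 with all libraries, 0.18 without obesity library 1 and 0.23 without control library 3, and that of Cdh11 was 0.43 and, without control library 3, 0.27. With the block and without number 3, Cdh11 was at 0.23 (unadjusted p 0.245). With the block and without number 1, Pcdh10 was at -0.20 (unadjusted p 0.256).

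**Figure D3:**
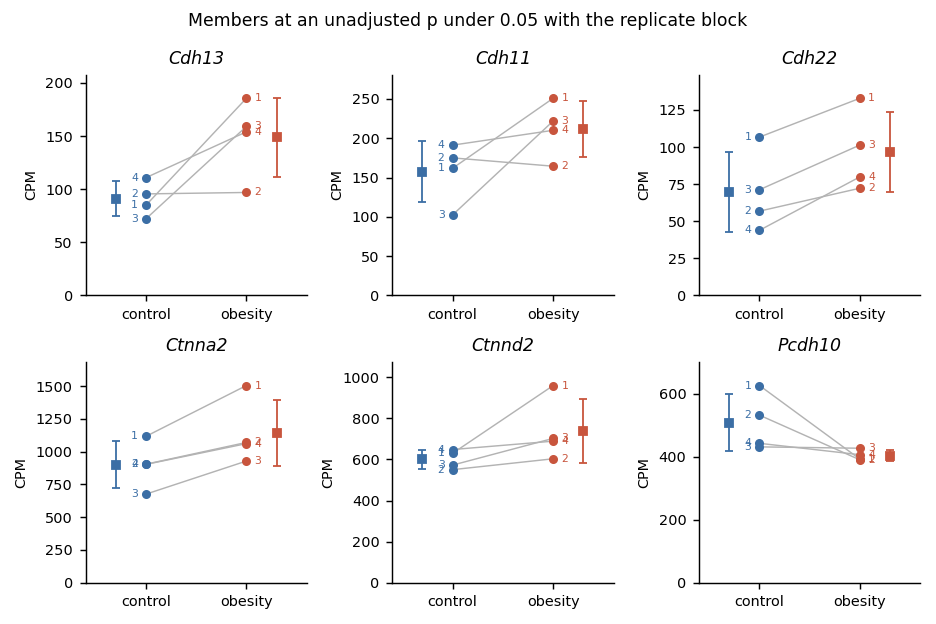
CPM of the 6 members at an unadjusted p under 0.05 with the block, with 1 point for each library, grey lines joining libraries of the same number, and squares with bars for the mean and SD of each group (n = 4). Obesity is the higher end of all 4 lines for Cdh13, Cdh22, Ctnna2 and Ctnnd2, of 3 lines for Cdh11 and of none for Pcdh10. The 6 were chosen by that fit, so like directions of the lines follow in part from the choice.

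Pcdh10 is a delta-2 protocadherin that recruits actin regulators and takes part in synapse removal. It had 626.1, 532.0, 431.3 and 442.6 CPM in control libraries and 392.0, 390.0, 427.0 and 406.4 in obesity libraries. The highest obesity library lay just below the lowest control, so the groups did not overlap. The means were 508.0 ± 90.7 and 403.9 ± 17.1 CPM, a log2 fold change of -0.33 (SE 0.19, edgeR unadjusted p 0.0965, adjusted p 0.912), and -0.32 with the block (unadjusted p 0.0397, adjusted p 0.427). Pcdh10 and the sparse Pcdhb17, at 10, 13, 13 and 12 reads in control and 8, 8, 0 and 7 in obesity, were the only members whose CPM did not overlap, 2 of 44 (4.55%), against 3.52% of all genes. Both were lower in obesity, against 1.67% of all genes. The other delta-2 members were Pcdh17, at 345.6 ± 63.6 and 310.3 ± 50.5 CPM, Pcdh19, an X-linked gene of female-limited epilepsy, at 75.5 ± 20.4 and 66.2 ± 2.11 CPM, and Pcdh8, with 81 reads in all. Their fold changes were -0.16, -0.19 and -0.05. Delta-2 genes together took 0.0813 ± 0.00886% of the reads in control and 0.0668 ± 0.00272% in obesity, and of the 4 genes Pcdh10 holds most of that share.

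Among the type I cadherins, N-cadherin (Cdh2), the main neuronal one, had 208.1 ± 26.4 CPM in control and 177.3 ± 33.4 CPM in obesity (log2 fold change -0.23, SE 0.21). R-cadherin (Cdh4) had 106.3 ± 24.4 and 99.2 ± 6.91 CPM. Of the 10 type II cadherins, 4 had fold changes above 0 and 6 below, from -0.46 for the sparse Cdh9 to 0.47 for Cdh22. The most abundant was Cdh18 at 405.3 ± 44.5 and 485.6 ± 131 CPM, and its obesity library 1, at 680.8 CPM, stood far above the other 7, which had 359.3 to 462.8. Cdh12 was at 267.2 ± 75.9 and 267.1 ± 71.5 CPM. Cdh10 had the lowest fold change among members with a mean of at least 10 reads, at 46.3 ± 7.76 and 34.4 ± 6.68 CPM (-0.43, SE 0.30, edgeR unadjusted p 0.163). The other atypical member, Cdh23, a component of hair cell tip links, had 51 reads at 1 site.

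Of the 6 catenins 5 had fold changes above 0. The median of the 6 was 0.32, and the range ran from -0.32 for Ctnna1, the alpha-catenin of most tissues, to 0.68 (SE 0.78) for the sparse Ctnnb1. The value of Ctnna1 sums both strands. Its plus-strand sites had 94, 78, 67 and 42 reads in control and 55, 67, 72 and 78 in obesity. Its minus-strand sites had 64, 35, 27 and 32 reads in control and 27, 16, 32 and 21 in obesity. Ctnnd2 had a fold change of 0.30 (SE 0.19, edgeR unadjusted p 0.138), and 0.28 with the block (unadjusted p 0.0498). It was 0.15 without obesity library 1, 0.18 (unadjusted p 0.317) when the sites on the opposite strand were left out, and 0.16 (unadjusted p 0.3498) with the block and without number 1. The p120-catenin Ctnnd1, which steadies cadherins at the membrane, had 217.9 ± 79.5 CPM in control and 237.3 ± 33.8 in obesity. Ctnna3 had 130.1 ± 23.8 and 163.4 ± 48.9 CPM. Among the remaining genes, Ctnnbl1 had 20.6 ± 7.63 and 31.6 ± 7.12 CPM (fold change 0.61, SE 0.37, edgeR unadjusted p 0.116). Ctnnbip1 had 42.0 ± 5.43 and 33.4 ± 13.9 CPM (-0.33, SE 0.33), and Ctnnal1 11.4 ± 7.30 and 14.3 ± 5.40 CPM.

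The remaining delta-1 members were Pcdh1, at 55.8 ± 25.6 CPM in control and 69.7 ± 46.2 in obesity, and the X-linked Pcdh11x, at 57.1 ± 9.24 and 62.9 ± 19.0 CPM. Pcdh15, a tip link partner of Cdh23 in the ear, had 36.6 ± 9.08 and 44.8 ± 9.87 CPM. Reads of the clustered genes lay mainly with Pcdhga7, at 198.6 ± 63.4 and 247.0 ± 76.5 CPM, and Pcdha4, at 169.4 ± 25.6 and 160.5 ± 25.8 CPM. In Pcdha4 the most 3′ of 12 sites held 52.8% of the reads, and in Pcdhga7 the most used site, site 7 of 14 from the 3′ end, held 34.5% and lay 1.77 kb before the last. Sites assigned to Pcdhga7 lay up to 85.7 kb before the last and those of Pcdha4 up to 205.3 kb. Which of them fall in the shared constant exons was not determined, and an end in those exons cannot be assigned to a single gene of the cluster. Pcdhga5 was at 34.0 ± 9.21 and 35.7 ± 10.3 CPM, and Pcdhga10, with 1 site and 87 reads, had a fold change of 0.96 (SE 0.85).

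Same-numbered libraries went together in some single members. Over the members as a set, the same-number correlations overlapped the others. The sum of squares of log2(CPM + 1) over the 8 libraries was divided into group, library number and rest, as a description chosen after the data were seen. The number has more levels than the group, so it takes a larger share even where neither has an effect. The shares of number and group are therefore not comparable with each other, only with those of all genes. Over the 31 members with at least 100 reads the median share of the number was 62.1%, that of the group 13.9% and that of the rest 28.2%. Over 8777 genes with as many reads the medians were 53.7%, 9.73% and 26.8%. Number took over 90% in Cdh6, Cdh12 and Pcdh1, 3 of the 31 members (9.68%), against 6.45% of the 8777 genes. For Pcdh1 the reads in libraries 1 to 4 were 35, 74, 108 and 89 in control and 38, 50, 230 and 122 in obesity. Group took over 50% in Cdh13 (57.8%) and in no other of the 31, a share of 3.23% against 6.46% of the 8777 genes.

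The same was seen at single sites, of which 3 are shown, chosen after their values were seen. A Pcdhga7 site on chromosome 18 (plus strand, 30969484 to 30969512 on Rnor_6.0) had 3, 33, 195 and 104 reads in control and 1, 14, 256 and 171 in obesity. Library 1 was lowest and library 3 highest in both groups. A Pcdh9 site on chromosome 15 (minus strand, 77729316 to 77729324) had 0, 66, 5 and 7 reads in control and 0, 60, 8 and 16 in obesity, with library 2 alone high. A Pcdh17 site (plus strand, 67644198 to 67644216) had 66, 4, 4 and 7 reads and 60, 2, 7 and 11, with library 1 alone high. In all, the number took over 90% at 22 of 229 member sites with at least 100 reads (9.61%), against 9.66% of 19881 sites of the table, a similar share. The labels do not say what libraries of one number share.

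The second comparison asked the same of each polyadenylation site. None of the 846 member sites passed an adjusted p of 0.1 in edgeR without the block (0.00135% of all sites did), with it (0.00541%) or in the DESeq2 Wald test (0.0136%). At an unadjusted p under 0.05 there were 22 sites (2.60%), against 3.14% of all sites. Of these 13 were higher and 9 lower in obesity, against 1.72% and 1.41% of all sites, and 4 were under 0.01, against 0.502%. The block raised this to 41 sites (4.85%, against 6.09% of all sites), of which 23 were higher and 18 lower, against 2.79% and 3.31%, and 12 were under 0.01, against 1.64%. The Wald test gave 27 (3.19%, against 3.86%). Site CPM did not overlap between groups at 24 sites (2.84%, against 3.11%). The 22 sites lay in 13 genes and 15 of them had a mean of at least 10 reads. All sites of the table had at least 30 reads in all, and the median member site had 58, so a typical site rested on few reads in each rat.

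**Figure D4:**
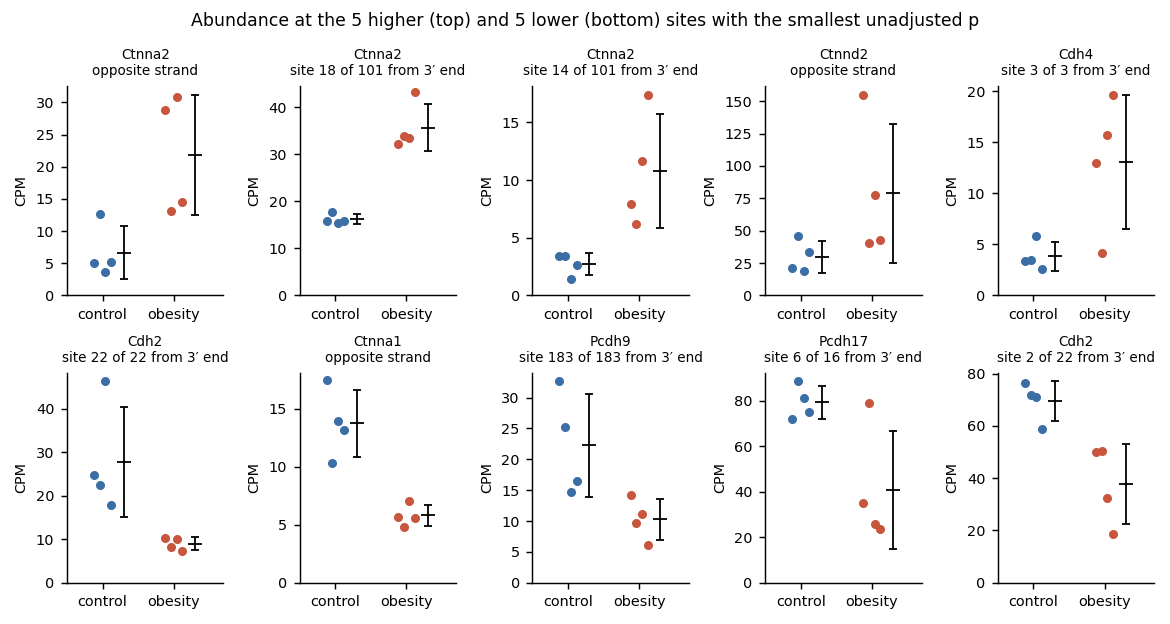
CPM at the 5 higher (top row) and 5 lower (bottom row) member sites with the smallest unadjusted p, with 1 point for each library and the mean and SD of each group (n = 4). In 7 of the 10 panels the groups do not overlap; they overlap for Ctnnd2, Cdh4 and Pcdh17.

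N-cadherin gave the lowest p. Its most 5′ site, site 22 of 22 from the 3′ end (chromosome 18, minus strand, 8348749 to 8348784), had 44, 39, 63 and 27 reads in the control rats and 18, 12, 20 and 13 in the obesity rats. All control values were above all obesity values. The site averaged 27.8 ± 12.6 CPM in control and 8.98 ± 1.42 CPM in obesity, with a log2 fold change of -1.62 (SE 0.45, edgeR unadjusted p 0.00266, adjusted p 1.00), and with the block the adjusted p was 0.302. The most used Cdh2 site, near the 3′ end (8147100 to 8147141), had 136, 125, 97 and 89 reads in control and 88, 73, 64 and 33 in obesity. It did not overlap either, at 69.6 ± 7.67 and 37.8 ± 15.4 CPM (-0.88, SE 0.37, unadjusted p 0.0326). At an inner Cdh2 site (8207916 to 8207917) the sign was opposite, with 0, 0, 2 and 1 reads in control and 8, 2, 13 and 12 in obesity. In all, 13 Cdh2 sites had fold changes above 0 and 9 below.

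Ctnna2 gave 3 of the 5 higher sites. Site 18 of 101 from the 3′ end (chromosome 4, minus strand, 108299033 to 108299035) had 28, 31, 21 and 24 reads in control and 57, 49, 66 and 77 in obesity. Its CPM was 16.2 ± 1.10 in control and 35.7 ± 5.03 in obesity (log2 fold change 1.14, SE 0.36, edgeR unadjusted p 0.00701, adjusted p 1.00), with the groups well apart. Site 14 of 101 (108293290 to 108293295) had 6, 6, 2 and 4 reads in control and 14, 9, 23 and 31 in obesity. The other site was on the strand opposite to the gene (plus strand, 108513258 to 108513279), with 9, 22, 5 and 8 reads in control and 51, 19, 61 and 26 in obesity (1.696, SE 0.54, unadjusted p 0.00668). It was the only plus-strand site assigned to Ctnna2, and the nearest plus-strand site of another gene was that of LRRTM1, 209.5 kb away. Of 102 Ctnna2 sites, 63 had fold changes above 0 and 39 below.

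The other higher sites were in Ctnnd2 and Cdh4. The Ctnnd2 site (chromosome 2, 83314308 to 83314317) was again on the opposite strand, with 37, 80, 26 and 51 reads in control and 274, 58, 153 and 76 in obesity (log2 fold change 1.396, SE 0.48, edgeR unadjusted p 0.0107). It held 9.83% of the reads summed for Ctnnd2, and obesity library 1 gave the most of them. Without that library the fold change was 0.83 (unadjusted p 0.0760). The most 5′ of 3 Cdh4 sites (chromosome 3, plus strand, 175250515 to 175250526) had 6, 6, 8 and 4 reads in control and 23, 6, 31 and 35 in obesity.

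Among the lower sites, that of Ctnna1 (chromosome 18, minus strand, 28011941 to 28011950) had 31, 18, 19 and 20 reads in control and 10, 7, 14 and 10 in obesity (log2 fold change -1.23, SE 0.49, edgeR unadjusted p 0.0249). It lay opposite to Ctnna1 and 1.05 kb from a minus-strand site of Lrrtm2, which lies inside Ctnna1 on that strand in RefSeq. The 4 minus-strand sites assigned to Ctnna1 held 31.5% of its reads, and whether they belong to Lrrtm2 was not tested. The most 5′ of 183 Pcdh9 sites (chromosome 15, minus strand, 77738525 to 77738586) had 58, 44, 20 and 25 reads in control and 25, 14, 22 and 11 in obesity (-1.11, SE 0.46, unadjusted p 0.0300). A Pcdh17 site (chromosome 15, plus strand, 67644543 to 67644598) had 128, 154, 111 and 114 reads in control and 62, 114, 51 and 42 in obesity. Obesity library 2 was within the control range there, and the fold change was -0.96 (SE 0.40, unadjusted p 0.0320).

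Many members had sites far from their 3′ end. Members had a median of 7.5 sites, against 2 for all genes, and 6 of the 117 genes with over 50 sites were members: Pcdh9 with 190, Ctnna2 with 102, Cdh18 with 73, Pcdh7 with 72, Ctnnd2 with 68 and Cdh12 with 55. Sites of Pcdh9 spanned 951.5 kb and those of Ctnna2 1155 kb. Among the 34 members with 2 or more sites on their main strand, the most used site was the most 3′ one in 8, the most 5′ one in 5 and lay in between in 21. It held from 4.79% of the reads, in Pcdh9, to 76.5%, in Ctnnd1, where it was site 8 of 9 from the 3′ end and lay 34.7 kb before the last. In Cdh11 it was the most 5′ of 17 sites, 149.0 kb before the last, with 36.2% of the reads. Whether such sites lie in exons or introns was not determined, as no annotation of the Rnor_6.0 build was used.

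**Figure D5:**
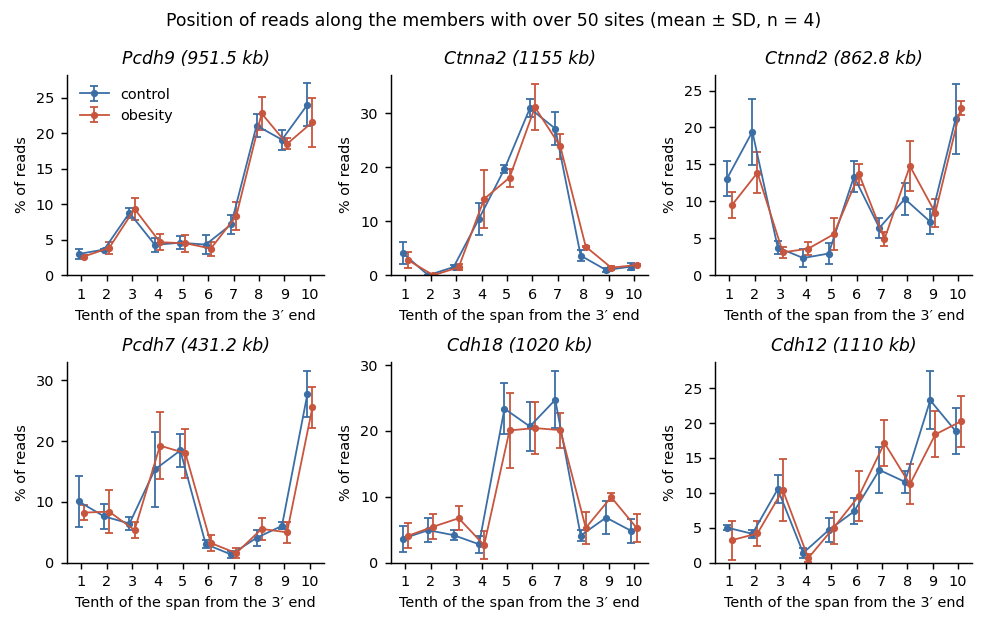
Percent of the reads of a gene in each of 10 equal parts of its span, counted from the most 3′ site, for the 6 members with over 50 sites (mean and SD, n = 4, control in blue and obesity in red). Parts 8 to 10, nearest the 5′ end, hold most Pcdh9 reads, and the middle holds most reads of Ctnna2 and Cdh18. The lines of the groups run close in many parts but not in all. Part 2 of Ctnnd2 is at 19.4 ± 4.46% in control and 13.9 ± 2.75% in obesity, and part 8 of Ctnna2 at 3.64 ± 1.04% and 5.29 ± 0.139%. Single parts were not tested.

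In Pcdh9, of 10 equal parts of the span, the one farthest from the 3′ end held 24.0 ± 3.02% of the reads in control and 21.6 ± 3.46% in obesity, while the one at the 3′ end held 2.999 ± 0.751% and 2.63 ± 0.233%. The read-weighted mean distance from the most 3′ site, a measure added after the data were seen, was 649.1 ± 12.6 kb in control and 639.4 ± 21.6 kb in obesity for Pcdh9. For Ctnna2 it was 606.7 ± 19.6 and 612.6 ± 13.4 kb. None of 17 members with at least 10 sites had an exact permutation p under 0.05, against 4.55% of 1430 genes. The lowest was 0.0857 for Ctnnd2 (2-sided), at 447.8 ± 42.9 kb in control and 497.3 ± 21.5 kb in obesity.

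The next comparison was whether the division of reads over the sites of a gene differed. None of 34 members passed an adjusted p of 0.1 in the site use test of edgeR with or without the block (0.0121% of all genes did in each), and 1 had an unadjusted p under 0.05 (2.94%, against 1.84% of 8276 genes), as did 1 with the block (against 3.08%). This was Cdh4, with an unadjusted Simes p of 0.0349 and an adjusted p of 1.00. Of its 3 sites the middle one held most reads, at 61.7 ± 13.5 CPM in control and 38.1 ± 13.9 in obesity, while the most 5′ one was at 3.83 ± 1.41 and 13.1 ± 6.56 CPM. The next lowest was Cdh2, with an unadjusted p of 0.126.

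The share of reads at the most 3′ site was compared by a 2-sided exact permutation test over 70 arrangements of the libraries, for which the smallest possible p is 0.0286. Of 27 members 2 reached it (7.41%, against 3.68% of 4624 genes), both with an adjusted p of 0.777. For Ctnna3 the share was 5.95, 7.69, 5.51 and 6.03% in control libraries and 3.75, 2.44, 0.327 and 2.46% in obesity libraries. For Pcdh7 it was 1.37, 0.794, 1.82 and 1.32% in control and 0.423, 0.489, 0.177 and 0.330% in obesity. Both were lower in every obesity library, and both sites are little used. With libraries exchanged only within same-numbered pairs, 4 pairs give 16 arrangements and the smallest possible p is 0.125, so no member could pass 0.05. Ctnna3 and Pcdh7 were both at that exact p, with the share lower in obesity in 4 of 4 pairs. For Ctnna3 the most 3′ site was taken on the main strand of the table, which is opposite to that in RefSeq for GRCr8, and whether it is the 3′ end of the gene was not tested. Taking the most 3′ site with at least 5% of the reads of the gene instead, neither was left (exact p 1.00 for Ctnna3 and 0.457 for Pcdh7). Cdh2 then had shares of 42.1, 40.9, 32.9 and 37.7% in control and 29.6, 32.2, 21.6 and 15.6% in obesity, again not overlapping (exact p 0.0286, adjusted p 0.818). That site is the abundant one described above.

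The strand of each member in the table was compared with RefSeq for GRCr8. It was the same for 32 of 33 members and differed for Ctnna3, whose sites were mainly on the plus strand (19 sites, 1234 reads) with 5 sites and 482 reads on the minus strand. Lrrtm3, which lies inside Ctnna3 in RefSeq, had the opposite strand as well, with 452 of its reads on the minus strand. The table uses another build, and the cause was not tested. Sites on the strand opposite to the main one held 3.07% of member reads in 12 genes, and 2.43% of the reads of all genes.

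Other genes of the same pathways were read from lists, with no set test. Of 21 other genes of the cadherin superfamily 14 were listed, and 0 had an unadjusted p under 0.05 with or without the block (edgeR, adjusted p under 0.1 for 0). Over all genes, 10.9% were under 0.05 with the block and 5.30% without it. Of 36 symbols of junction partners of cadherins 29 were listed, and 5 of the absent ones are older names of listed genes. None of the 29 had an unadjusted p under 0.05, against 5.30% of all genes, and with the block 3 were higher and 3 lower, against 5.03% and 5.83% of all genes. Regulators of beta-catenin numbered 25 of 31, with 3 higher in obesity: Apc2, a scaffold of the complex that breaks down beta-catenin, at 58.4 ± 17.3 and 95.9 ± 11.5 CPM (log2 fold change 0.71), Dvl2, a relay of Wnt signals, at 39.6 ± 14.6 and 74.6 ± 13.0 CPM (0.92), and Tcf7l1, a partner of beta-catenin on DNA, at 10.5 ± 2.36 and 21.9 ± 9.74 CPM (1.06). Each had an unadjusted p under 0.05 and an adjusted p of 0.904 in edgeR without the block. There 5.30% of all genes were under 0.05 in either direction. With the block 4 of the 25 were higher and 1 lower, against 5.03% and 5.83% of all genes. Among 15 partners of protocadherins 1 was higher, against 5.30% of all genes in either direction. It was the actin regulator Wasf1, at 56.5 ± 7.30 and 162.9 ± 155 CPM, and obesity library 1 alone gave 528 of its reads. With the block 1 of the 15 was higher and 1 lower, against 5.03% and 5.83% of all genes. The lower one was Abi2, a subunit of the same actin regulating complex, at 60.7 ± 13.1 and 41.8 ± 11.6 CPM. Of 13 regulators of the clustered genes 11 were listed and 0 had an unadjusted p under 0.05, against 5.30% of all genes. With the block 1 was lower, against 5.83% of all genes. The medians of the lists were -0.11 to 0.20 on the log2 scale, against 0.01 over all genes.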

How the data were processed

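The deposited table holds raw counts of WTTS-seq reads per polyadenylation site, with no normalization by the authors. The submitters' processing notes name Bowtie2 2.2.3 and the Rnor_6.0 build. How reads were clustered into sites and sites assigned to genes is not given in the sources used here, as the linked paper describes another exposure. A line without a site, which held the total of control library 1 (1710888 reads), was left out. Groups follow the labels.

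Counts were summed per gene identifier over all its sites, and edgeR 4.0.16 in R 4.3.3 gave quasi-likelihood tests of genes and sites, with TMM scaling and no filter. P-values were adjusted by Benjamini-Hochberg over the 12255 genes or the 73922 sites. Site use was tested with diffSpliceDGE (Simes p over 8276 genes). DESeq2 1.42.0 was an alternative. Distal shares used exact permutation tests on genes with at least 20 reads in every library, across all 8 libraries and, added after the data were seen, within same-numbered pairs. The functions were tested on simulated counts. Library sizes limit single sites to a median of 58 reads over the 8 libraries, and PCR reads without molecular identifiers make counting precision an upper limit. The labels give 8 libraries for 8 rats.

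Deviations from the group mean correlated at 0.222 to 0.327 between libraries of the same number and at -0.175 to 0.0493 otherwise. All 4 pairs were over 0.1, so the number was taken as a block in a second fit. Fits without the block, the DESeq2 Wald test and the exact test over 70 arrangements took no account of it. Over the members alone the same-number values were 0.0331 to 0.599 and the others -0.596 to 0.228, so these overlapped. What a number marks is not stated in the labels.

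Named in the text are members at an unadjusted p under 0.05 without the block or an adjusted p under 0.1 with it, the 3 most abundant of each role, the 3 with the largest fold change in each direction among those with a mean of at least 10 reads, and, in each direction, the 5 sites of smallest p with such a mean. Other genes and sites were named after their values were seen. The members, lists and tests were chosen with earlier results of these data known.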

Additional observations from a re-analysis of the deposited data

Results flagged for a closer look

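In 134 checks of groups of 4 libraries, 9 had 1 library far from the other 3 relative to the range of the group, and chance gives about 1 in 20. Cdh18 was at 680.8 CPM in obesity library 1, where the remaining obesity libraries had 397.6 to 441.4, and Ctnnbip1 was at 54.0 CPM in obesity library 2, where the others had 23.8 to 28.3. At the Ctnna2 site starting at 108299033, control library 2 was at 17.8 CPM and the rest of its group at 15.4 to 15.8, and obesity library 4 was at 43.2 CPM and the rest at 32.3 to 33.9.

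In the share of reads at the most 3′ site, Cdh12 was at 3.06% in obesity library 1 and at 0 to 0.258% in the remaining obesity libraries. Ctnna2 was at 4.22% in obesity library 2 and at 0.634 to 1.20% in the rest of that group, while control library 2 was at 4.64%. Control library 3 had 12.4% for Ctnnd2 against 6.26 to 6.86%. For Pcdh1, control library 1 had 65.7% against 15.7 to 18.0%, and obesity library 1 was also high, at 68.4%. For Pcdh15, obesity library 2 had 57.4% against 13.7 to 16.7%. Obesity library 1 and control library 1 also had the most sites at 0 reads in the table, 10659 and 14788. No cause of these values was tested.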

How the results depend on the processing

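Depth limits single sites, with a median of 58 reads at a member site, and no direction of a member near a fold change of 0 is firm. Of the 44 members, 34 were tested after the filterByExpr filter, and 300 of the 846 sites.

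With the replicate block, the count of members at an unadjusted p under 0.05 went from 1 to 6, while the share of all genes went from 5.30% to 10.9%. Leaving out both libraries numbered 1, 2, 3 or 4 in that fit gave 2, 6, 5 and 4 members, not all of them among the 6 found with all libraries. At an adjusted p under 0.1 the block gave 0, but 2 (4.55% of the members) without number 2, where 4.63% of all genes passed. Leaving out single libraries without the block gave 1 to 2 members. The 22 of 846 sites (2.60%) became 41 with the block (4.85%, against 6.09% of all sites) and 12 of the 300 sites left by the filter. Without single libraries they were 15 to 38, with 38 without obesity library 2 and 15 without obesity library 3. Apart from the 4.63% above, shares over all genes or sites were not taken with the filter, the 5% site or libraries left out. Those counts are therefore not set against the whole table. For site use, 1 became 0 with the filter and 0 to 1 without single libraries. The 2 distal shares became 1 with the 5% site, 1 to 3 without single libraries and 0 with the block by exchange within pairs, a test added after the data were seen that cannot go below 0.125.

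The fold change of Cdh12 changed sign to 0.0037 with DESeq2 size factors, 0.0036 in the Wald test, 0.00088 with the filter and 0.0049 with the replicate block (0.0017, 0.050 and 0.012 without number 1, 2 or 4). Pcdh9 was at -0.014 on the main strand only, and at -0.045 and -0.0071 with the block without number 3 or 4. With the block, leaving out number 1 gave -0.039 for Cdh23 and 0.084 for Pcdha4. Number 2 gave 0.025 for Pcdh7, number 3 gave 0.10 for Cdh4, and number 4 gave 0.016 for Pcdh7, -0.014 for Ctnnal1 and -0.13 for Pcdhga5. With the 5% site the difference in distal share, in percentage points, turned to -1.18 for Cdh18, 0.777 for Ctnna2, 2.43 for Ctnnd1, 2.10 for Pcdh10, -4.11 for Pcdh17 and 2.195 for Pcdh7.

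Without single libraries the sign also turned in these ranges of fold change: -0.19 to 0.18 for Cdh12, -0.35 to 0.57 for Cdh23, -0.21 to 0.048 for Cdh4, -0.081 to 0.31 for Ctnnd1, -0.17 to 0.60 for Pcdh1, -0.11 to 0.049 for Pcdh7, -0.089 to 0.049 for Pcdh9, -0.19 to 0.011 for Pcdha4 and -0.070 to 0.23 for Pcdhga5. For the distal share they were -1.64 to 0.276 for Cdh13, -0.0737 to 0.929 for Cdh18, -1.78 to 1.45 for Ctnnd1, -11.5 to 13.5 for Pcdh1, -3.32 to 11.2 for Pcdh15, -1.59 to 1.02 for Pcdh17, -0.601 to 3.68 for Pcdha4 and -4.66 to 6.78 for Pcdhga5. The cause of these turns was not tested.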
